A study of Mus musculus with 6 samples.

Results

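The 10 genes described here encode heat shock chaperones, proteins that help other proteins fold and keep them from clumping. They were taken by name from the deposited counts per gene, which list 38926 genes, and all 10 were among the 13646 genes with enough counts to be tested. A total of 7 encode chaperones of the cytosol and nucleus (Hspa1a, Hspa1b, Hspa8, Hsp90aa1, Hsp90ab1, Hsph1 and Dnajb1), 1 encodes a chaperone of the endoplasmic reticulum (ER; Hspa5), and 2 encode the barrel and the lid of the mitochondrial chaperonin (Hspd1 and Hspe1). The samples were hematopoietic stem cells (HSCs) purified by flow cytometry from fetal livers of mouse embryos at E14.5 (embryonic day). The 3 controls carried Vav-Cre; Dpy30F/+ and the 3 knockouts Vav-Cre; Dpy30F/-. In the usual notation F is a floxed allele that Cre can delete, + an intact allele and - a null allele. Every sample thus carried the Cre transgene, which the Vav promoter drives in blood-forming cells and also in some endothelial cells, and the controls were heterozygous where Cre had acted. Each of 3 litters gave 1 control and 1 knockout, and replicate numbers are litter numbers. The labels do not say how many embryos went into a sample. Dpy30 is a shared subunit of the SET1/MLL enzymes that methylate lysine 4 of histone H3, a mark of active gene starts.

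Chaperones of the HSP70 class (Hspa genes) bind exposed stretches of unfolded proteins and release them in cycles driven by ATP. J-domain proteins such as Dnajb1 deliver clients and trigger ATP use, and HSP110 (Hsph1) exchanges the nucleotide so that the cycle can restart. HSP90 (Hsp90aa1, Hsp90ab1) takes over clients late in folding, such as kinases and steroid receptors. In mitochondria HSP60 (Hspd1) forms a barrel that HSP10 (Hspe1) closes like a lid. Heat and other stress raise many of these genes through the transcription factor HSF1, which binds repeats of GAA facing in alternate directions, while misfolded protein in the ER raises Hspa5 through a separate element. Adult HSCs are known for low rates of protein synthesis and for sensitivity to disturbed protein quality.

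Sequences upstream of the starts are shown because they separate the members by the elements they carry and because Hspa1a and Hspa1b are near copies. RefSeq (GRCm38.p6) gave windows for 7 of the 10 members (all but Hspa8, Hsp90aa1 and Hsp90ab1). The 250 bases before each start were searched on both strands. Capitals mark the letters GAANNTTC or TTCNNGAA (pairs of heat shock units, which overlap inside a triple) and, for Hspa5, CCAAT and CCACG with 9 bases between them (the ER stress element). All run 5′ to 3′ on the strand of the gene.
Hspa1a (chr17:34972157-34972406, minus strand): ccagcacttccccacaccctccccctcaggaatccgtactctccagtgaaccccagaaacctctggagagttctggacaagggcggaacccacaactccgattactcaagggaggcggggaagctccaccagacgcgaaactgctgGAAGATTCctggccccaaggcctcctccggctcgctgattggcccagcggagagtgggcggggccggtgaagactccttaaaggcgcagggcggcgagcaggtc
Hspa1b (chr17:34959239-34959488, minus strand): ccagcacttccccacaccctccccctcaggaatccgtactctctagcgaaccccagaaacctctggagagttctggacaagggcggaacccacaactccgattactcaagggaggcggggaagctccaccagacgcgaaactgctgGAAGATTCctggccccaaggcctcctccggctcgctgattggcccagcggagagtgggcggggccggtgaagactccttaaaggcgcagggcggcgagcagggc
Hspa5 (chr2:34771840-34772089, plus strand): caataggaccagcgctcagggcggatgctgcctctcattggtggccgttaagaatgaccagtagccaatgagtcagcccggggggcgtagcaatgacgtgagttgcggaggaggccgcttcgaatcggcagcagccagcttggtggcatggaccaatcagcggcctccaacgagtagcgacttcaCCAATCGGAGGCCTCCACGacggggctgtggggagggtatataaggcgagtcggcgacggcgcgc
Hspd1, start region shared with Hspe1 (chr1:55087933-55088131, minus strand): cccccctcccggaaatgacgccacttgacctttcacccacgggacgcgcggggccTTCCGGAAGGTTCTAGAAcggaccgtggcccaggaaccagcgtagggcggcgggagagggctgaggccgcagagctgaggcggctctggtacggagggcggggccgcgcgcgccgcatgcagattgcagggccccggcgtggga
The windows of Hspa1a and Hspa1b had the same base at 247 of 250 positions (98.8%), and each held a single pair of units, GAAGATTC, 97 to 104 bases before the start. Hspd1 and Hspe1 lie head to head on chromosome 1, and the stretch printed is upstream of the RefSeq start of Hspe1 and of 1 of the 2 RefSeq starts of Hspd1. The window of the other Hspd1 start (chr1:55088244-55088493) held neither pair nor triple, and the stretch printed lies downstream of that start. GENCODE also places first exons of Hspd1 over part of it. It held a triple of units (GAANNTTC followed by NNGAA) on each strand, overlapping each other. Among the 7 members only Hspd1 and Hspe1, which share this stretch, had the triple, which 0.466% of 32851 RefSeq windows of the same length held. A pair was found upstream of 5 members, against 6.69% of windows for GAANNTTC and 7.17% for TTCNNGAA. The Hspa5 window held the ER stress element 47 to 65 bases before the start, as did 0.113% of windows. Letters that match are a description and do not show that a factor was bound.

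Counts assigned to genes summed to between 35559444 and 43394700 in controls and between 31897737 and 36679347 in knockouts. Values are given as CPM, a gene's counts per 1000000 counts of its library after scaling by trimmed mean of M values (TMM), so that 1 count was 0.0227 to 0.0345 CPM. Mitochondrially encoded genes took 54.4% to 67.7% of gene counts in controls and 49.2%, 55.7% and 50.1% in knockouts 1 to 3. The targeted gene, Dpy30, had 24.6, 24.2 and 31.6 CPM in controls 1 to 3 and 7.93, 5.95 and 13.7 CPM in knockouts 1 to 3. Every knockout thus lay below every control, as for 7.74% of all genes tested. Dpy30 had a log2 fold change (knockout over control) of -1.55 (edgeR unadjusted p = 0.0102, adjusted p = 0.672, DESeq2 adjusted p = 0.126). Neither tool, without a litter term, thus called the targeted gene at an adjusted p under 0.05. Libraries 2 and 3 of the knockout stood apart in cell type markers. The summed level of 7 endothelial markers was 179.9 CPM in knockout 2 and 1157 to 1809 CPM in the 5 other libraries. The summed level of 11 HSC and progenitor markers was 261 CPM in knockout 3 against 645 to 662 CPM in controls and 804 and 901 CPM in knockouts 1 and 2. The endothelial sum was thus above this HSC sum in every library other than knockout 2, controls included. Sums over different genes do not give shares of cells. The members' levels are those of whole libraries, and the part of each cell type in them was not tested. Hlf, a transcription factor of HSCs, was at 27.2 CPM in knockout 3 and at 146 to 229.9 CPM elsewhere. Summed macrophage markers (10 genes) were at 772, 331 and 1439 CPM in knockouts 1 to 3, with 285 to 591 CPM in controls. The sum of knockout 2 joins opposite directions. There Mrc1 (26.4 CPM) and Vcam1 (2.31 CPM) were below all other libraries. Csf1r (92.4 CPM), C1qb (30.9 CPM), Cd68 (23.7 CPM), Lyz2 (114 CPM), C1qa and Cx3cr1 were above all controls in knockout 2. C1qc and Adgre1 lay within the control range. Of these 10 genes, 4 were higher in every knockout than in any control (6.39% of all genes tested were). Erythroid markers (9 genes) summed to 1152 to 1856 CPM in controls and to 614 to 1666 CPM in knockouts, and hepatocyte markers (9 genes) to 5.25 to 23.6 and 3.47 to 5.06 CPM. Of 8 lymphoid markers Cd3e, Cd3g and Cd8a were at 0 counts in all libraries. Mast cell and megakaryocyte markers (7 genes) summed to 52.2 to 87.9 CPM in controls and 68.5 to 76.5 CPM in knockouts. Every knockout lay below every control in 1 erythroid, 1 hepatocyte and 1 mast cell or megakaryocyte marker (7.74% of all genes did), and above in 2 of the last list. In bulk libraries fewer cells of a type and less RNA per cell cannot be told apart.

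No member passed the threshold of an adjusted p under 0.05 in edgeR's quasi-likelihood test between the genotypes, which called 0% of the 13646 genes. The adjusted p of the members ran from 0.642 to 0.958. At an unadjusted p under 0.05, where 6.51% of all genes lay, there were 2 members, Hspd1 (lower in the knockout) and Hspa1a (higher). DESeq2, which called 1.02% of the genes, called 0 members, and limma-voom called 0 members and 0 genes. With litter as a block edgeR called 0% of genes, and 1 member, Hspd1, was lower at an unadjusted p under 0.05 (as were 1.81% of all genes, with 2.73% higher). DESeq2 with this block called 1.98% of the genes and 1 member, Hspa1a. The members' median log2 fold change (knockout over control) was -0.16, with 6 members below 0 (49.2% of all genes were) and 4 above, and the median over all genes tested was 0.01. When libraries were scaled by size alone the log2 fold changes of all genes moved up by a median of 0.204, and under upper-quartile scaling they moved by -0.116. Under each of the 5 scalings run, 6 members lay below the median of all genes and 4 above. A spread between replicates larger in the knockouts than in the controls, as SD over mean, was seen in 8 of 10 members and in 74.5% of all genes. The labels do not say whether samples came from single embryos, and p-values measure the spread between these samples only. With 3 against 3 samples the exact permutation test cannot give a p under 0.1.

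**Figure D1:**
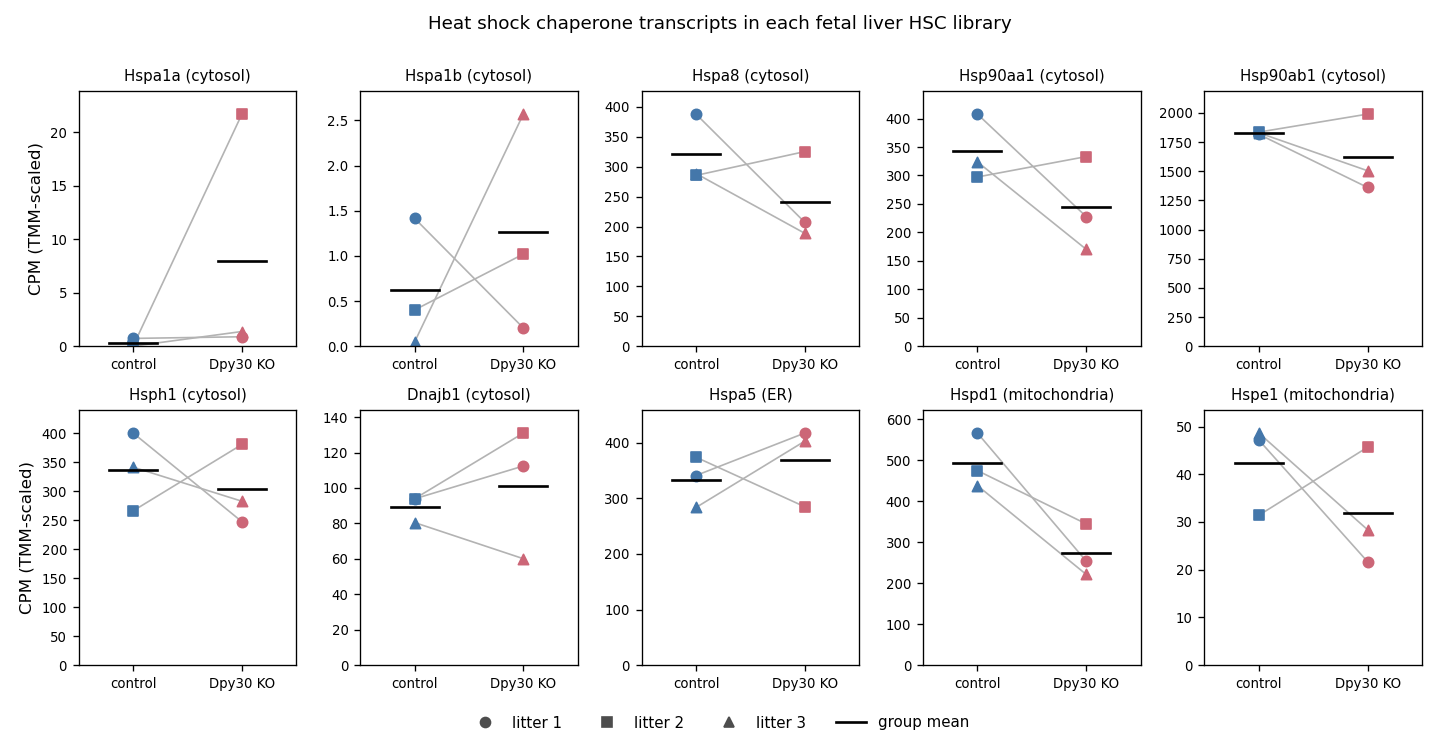
TMM-scaled CPM (y axis, from 0, a scale of its own for each gene) of the 10 members in controls (blue) and Dpy30 knockouts (red). Symbols and grey lines join samples of a litter and black bars are means of 3 samples. Hspd1 lay between 438 and 567 CPM in controls and between 221 and 345 CPM in knockouts, while in most other panels the groups overlap.

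Of the 8 abundant members, the mitochondrial Hspd1 had the largest fitted difference between the genotypes. Hspd1 (ENSMUSG00000025980.14, chromosome 1, 55077835 to 55088243, minus strand), the HSP60 barrel, had 567, 475 and 438 CPM in controls 1 to 3 and 254, 345 and 221 CPM in knockouts 1 to 3. Every knockout lay below every control, as was so for 7.74% of all genes tested. Controls averaged 493 ± 66.1 CPM and knockouts 273 ± 63.96 CPM (SD, n = 3 each), a knockout level of 55.4% of control. The edgeR log2 fold change was -0.85 (SE 0.23; 95% interval -1.38 to -0.32; unadjusted p = 0.00599, adjusted p = 0.642), and the exact permutation p was 0.1, the smallest possible. The knockout was lower in each litter, with differences of -1.16, -0.46 and -0.985 in log2 CPM in litters 1 to 3, and 15.9% of all genes were lower in all litters. Without knockout 2 the log2 fold change was -1.05, and without knockout 3 it was -0.71. Hspd1 was the only member whose unadjusted p stayed under 0.05 in each of the 16 alternative fits, where its adjusted p ran from 0.0946 to 1.00. Of the stretches of 50 bases in its transcript, 44.8% also occur in transcripts of other genes (42.8% in the pseudogene Hspd1-ps3), and the files tally reads with more than 1 alignment apart from the genes.

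Hspe1 (ENSMUSG00000073676.4, chromosome 1, 55088132 to 55091307, plus strand), the HSP10 lid, starts next to Hspd1 on the other strand. It had 47.2, 31.4 and 48.6 CPM in controls 1 to 3 and 21.7, 45.7 and 28.4 CPM in knockouts 1 to 3. Knockouts 1 and 3 lay below all controls, and knockout 2 lay within their range. The log2 fold change was -0.41 (SE 0.38; 95% interval -1.28 to 0.46; edgeR adjusted p = 0.898). It was -0.76 without knockout 2 and -0.20 without knockout 1. The litter differences in log2 CPM were -1.12, 0.54 and -0.78, so the pair differed from control in the same direction in litters 1 and 3 and in opposite directions in litter 2. The ratio of Hspd1 to Hspe1, each per base of exon, was 6.70, 8.44 and 5.03 in controls and 6.54, 4.21 and 4.36 in knockouts (exact permutation p = 0.2). The annotated exons of the pair overlap by 112 bases, and the counting is not stated to use strand. Summed, the pair averaged 536 ± 68.3 CPM over controls and 305 ± 74.9 CPM over knockouts (SD, n = 3 each).

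The other mitochondrial chaperones and proteases, 11 listed and all tested, had a median log2 fold change of 0.64. A total of 7 lay above 0 and 4 below, where 49.2% of all genes lay below. None passed the threshold in edgeR or DESeq2. Every knockout lay above every control in 2 of the 11 and below in 0 (6.39% and 7.74% of all genes). Hspa9, the HSP70 of the mitochondrial matrix, had 227 ± 27.5 CPM in controls and 189.6 ± 44.6 CPM in knockouts (means ± SD, n = 3 each; log2 fold change -0.26). The 2 with the smallest p were Hscb, a J protein of iron-sulfur cluster assembly, and Grpel1, the exchange factor of Hspa9. Hscb had 16.3, 12.3 and 13.8 CPM in controls and 18.7, 27.1 and 35.2 CPM in knockouts (edgeR unadjusted p = 0.0482, adjusted p = 0.766), every knockout above every control, as for 6.39% of all genes. Grpel1 had 11.7 ± 3.70 CPM in controls and 21.5 ± 6.33 CPM in knockouts (means ± SD, n = 3 each; edgeR adjusted p = 0.797), with overlapping groups. Hspd1 over Hspa9, each per base of exon, was 4.73, 3.14 and 3.00 in controls and 2.10, 2.45 and 2.55 in knockouts. This ratio was lower in every knockout than in any control (exact permutation p = 0.1, the smallest possible). Hspd1 alone already separated the groups and Hspa9 was chosen after its values were seen, so the ratio is no separate evidence.

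**Figure D2:**
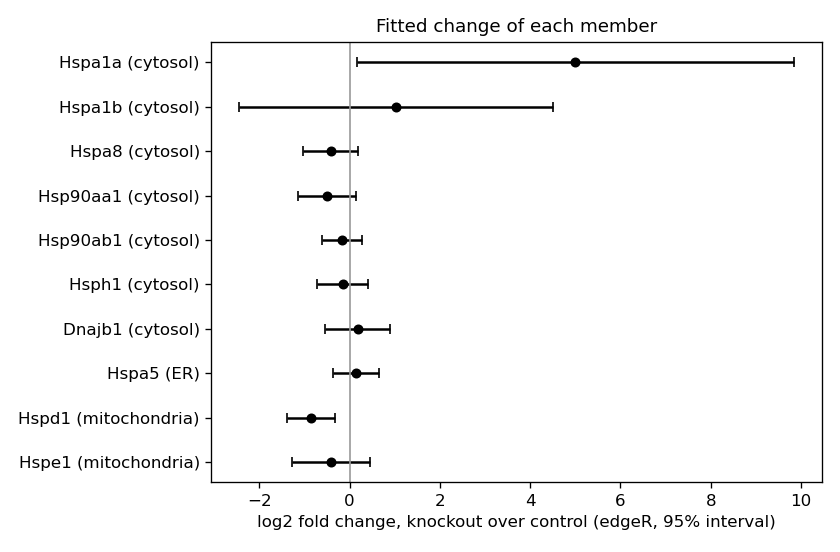
Log2 fold change of knockout over control (x axis) for each member, points, with 95% intervals from edgeR's quasi-likelihood fit as bars. The intervals of Hspd1 (-1.38 to -0.32) and Hspa1a (0.16 to 9.85) do not include 0, before any adjustment for the number of genes tested.

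Hspa5 (ENSMUSG00000026864.13, chromosome 2, 34771970 to 34777547), also called BiP, is the main HSP70 of the ER and a sensor of its folding load. It had 341, 374 and 283 CPM in controls 1 to 3 and 417, 285 and 403 CPM in knockouts 1 to 3. Knockouts 1 and 3 lay above all controls and knockout 2 lay at the lower end of the control range. The log2 fold change was 0.15 (SE 0.22; 95% interval -0.37 to 0.66; edgeR adjusted p = 0.945), so the interval runs from 0.775 to 1.58 times the control level. It was 0.30 without knockout 2, 0.24 without control 2, 0.042 without control 3, 0.045 without knockout 1, 0.090 without knockout 3 and 0.023 under upper-quartile scaling. Per base of exon, Hspa5 over Hspd1 within a library was 0.376, 0.492 and 0.404 in controls and 1.03, 0.516 and 1.14 in knockouts. This ratio does not depend on the scaling of libraries. It was higher in every knockout than in any control (exact permutation p = 0.1, the smallest possible), narrowly so in knockout 2. Hspd1 alone already separated the groups, so the ratio is no separate evidence.

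Of 20 other ER chaperones and folding enzymes, all tested, 12 had a log2 fold change above 0 and 8 below, with a median of 0.12 (10 and 10, with a median of 0.0048, under upper-quartile scaling). In edgeR none passed. Every knockout lay below every control in 3 of the 20 and above in 1 (7.74% and 6.39% of all genes). DESeq2, which called 1.02% of all genes, called 1 of the 20, Dnajc1, a J protein of the ER membrane. It had 29.6, 24.4 and 34.2 CPM in controls and 62.3, 61.8 and 73.4 CPM in knockouts (DESeq2 log2 fold change 1.18, adjusted p = 0.0261; edgeR adjusted p = 0.622), about the same in all 3 knockouts. Among 6 genes of the unfolded protein response, the signalling from the ER that raises Hspa5, none passed in edgeR or DESeq2 and the median was 0.18 (0.022 under upper-quartile scaling and 0.32 with library size alone). Eif2ak3, which encodes the sensor kinase PERK, had 5.11, 6.63 and 5.76 CPM in controls and 2.26, 1.74 and 0.885 CPM in knockouts (edgeR unadjusted p = 0.0658, adjusted p = 0.775). Xbp1, a transcription factor of the response, had 32.6 ± 3.53 CPM in controls and 45.2 ± 12.7 CPM in knockouts (means ± SD, n = 3 each; edgeR adjusted p = 0.855).

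In Hspa8 and the HSP90 pair, abundant chaperones of the cytosol, knockouts 1 and 3 were below the controls and knockout 2 was not. Hspa8 (ENSMUSG00000015656.17, chromosome 9, 40800984 to 40810087), the HSP70 made in all cells, had 388, 286 and 289 CPM in controls 1 to 3 and 207, 325 and 189 CPM in knockouts 1 to 3. Hsp90aa1 (ENSMUSG00000021270.13, chromosome 12, 110690605 to 110702728), the more inducible HSP90, had 408, 297 and 324 CPM in controls and 228, 333 and 170.25 CPM in knockouts. Hsp90ab1 (ENSMUSG00000023944.14, chromosome 17, 45567775 to 45573271), the constitutive HSP90, had 1817, 1836 and 1830 CPM in controls and 1361, 1990 and 1504 CPM in knockouts. For these 3 genes knockouts 1 and 3 lay below every control, and knockout 2 lay within the control range or, for Hsp90ab1, above it. The controls' values of Hsp90ab1 spread by 0.521% of their mean and the knockouts' by 20.4%.

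Fitted over all 6 samples, the log2 fold change was -0.42 for Hspa8 (SE 0.27; 95% interval -1.03 to 0.20), -0.49 for Hsp90aa1 (SE 0.28; -1.14 to 0.15) and -0.18 for Hsp90ab1 (SE 0.19; -0.62 to 0.27). Their adjusted p in edgeR was 0.845, 0.814 and 0.914. The intervals thus include the control level and also levels down to 0.490, 0.455 and 0.652 of it. Without knockout 2 the values were -0.70, -0.79 and -0.35, with edgeR adjusted p of 0.466, 0.466 and 0.538, and for Hspa8 and Hsp90aa1 an unadjusted p of 0.0202 and 0.0158. Leaving out control 2 moved Hspa8 to -0.49 and Hsp90aa1 to -0.58, further from 0. Some other omissions brought the values nearer to 0. Hspa8 was at -0.25 without control 1 and -0.26 without knockout 3, Hsp90aa1 at -0.28 without knockout 3, and Hsp90ab1 at -0.064 without knockout 1 and -0.11 without knockout 3 (edgeR adjusted p 0.850 to 0.999). With counts scaled by library size alone Hsp90ab1 turned to 0.01. In Hspa8 and Hsp90aa1, 73.2% and 58.5% of stretches of 50 bases occur in transcripts of other genes, against 4.49% in Hsp90ab1.

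Hsph1 (ENSMUSG00000029657.15, chromosome 5, 149614287 to 149636376), the HSP110 exchange factor, had 400.3, 266 and 341 CPM in controls and 247, 381 and 283 CPM in knockouts, with overlapping groups. Its log2 fold change was -0.15 (SE 0.25; 95% interval -0.71 to 0.42; edgeR adjusted p = 0.954), which turned to 0.07 when scaled by library size alone and was 6.3e-05 without control 1, -0.019 without knockout 1, -0.29 without control 2 and -0.34 without knockout 2. Dnajb1 (ENSMUSG00000005483.10, chromosome 8, 83608193 to 83612653), the HSP40 partner of HSP70, had 93.9, 93.9 and 80.5 CPM in controls and 112, 131 and 60.1 CPM in knockouts. Here knockouts 1 and 2 lay above and knockout 3 below all controls, and the log2 fold change was 0.18 (SE 0.31; 95% interval -0.54 to 0.89; edgeR adjusted p = 0.958). It turned to -0.052 without knockout 2 and was 0.46 without knockout 3. The summed level of the 7 cytosolic members was 3109, 2779 and 2864 CPM in controls and 2156, 3183 and 2210 CPM in knockouts.

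**Figure D3:**
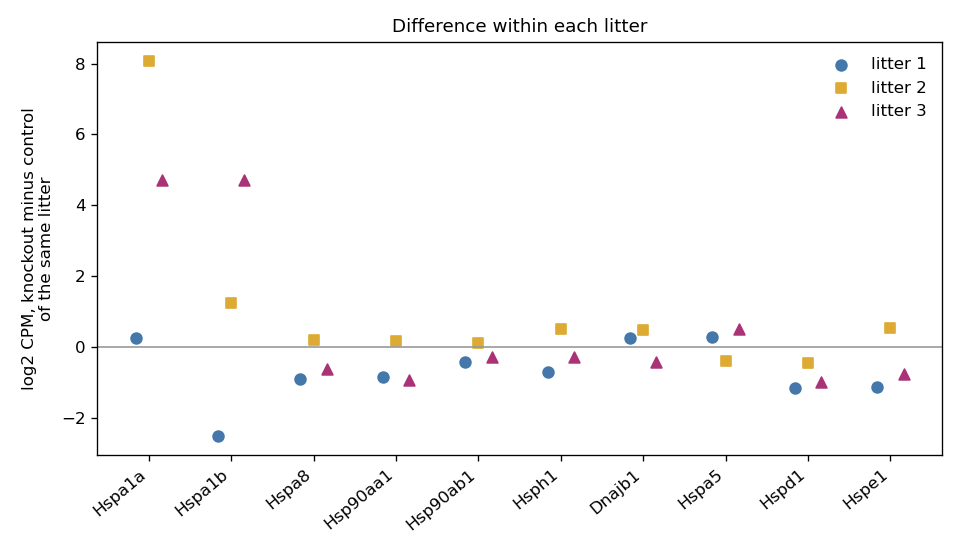
Difference in log2 CPM between the knockout and the control of a litter (y axis) for each member, 1 symbol per litter. In litter 2 (squares) 8 of the 10 members lie above 0, while in litters 1 and 3 only 3 each do, and Hspd1 lies below 0 in every litter.

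Knockout 2 had the highest value of the 3 knockouts in 8 of the 10 members, whereas it was the highest in 32.0% of all genes tested. In litter 2, 8 members were higher in the knockout, where 52.8% of all genes were lower. In litters 1 and 3, 7 members each were lower in the knockout, where 48.9% and 54.8% of all genes were. Knockout 2 was also the library with the low endothelial marker sum given above, and with the largest mitochondrial share among the knockouts. The part of either in the levels of the members was not tested. Knockouts 3 and 1 had 261 and 804 CPM of summed HSC markers, and 2210 and 2156 CPM of summed cytosolic members. Hsp90ab1 alone gave 1504 and 1361 CPM of the latter sums. The part of HSC content in the levels of the members was not tested.

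The heat-inducible HSP70 pair had low counts in most libraries. Hspa1a (ENSMUSG00000091971.3, chromosome 17, 34969190 to 34972156) had 21, 1 and 0 counts in the controls, by replicate, and 35, 787 and 48 in the knockouts, or 0.725, 0.0267 and 0 CPM against 0.881, 21.7 and 1.37 CPM. The 0 of control 3 allows up to 0.0680 CPM, counting error only. Knockout 2 held nearly all of the counts, and knockout 1 was close to control 1. Every knockout lay above every control, as for 6.39% of all genes. The fitted log2 fold change was 5.0 (SE 2.10; 95% interval 0.16 to 9.85; edgeR unadjusted p = 0.0444, adjusted p = 0.761). Without knockout 2 it was 2.167 (unadjusted p = 0.339, edgeR adjusted p = 0.786), and without control 1 it was 8.97. DESeq2 gave no p for Hspa1a, as it does where 1 count is extreme for its group. With litter as a block DESeq2 called it (adjusted p = 0.00312). Such a design has 1 sample for each litter and genotype, so DESeq2 does not screen extreme counts there. In edgeR with the block its adjusted p was 0.953.

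Hspa1b (ENSMUSG00000090877.3, chromosome 17, 34956436 to 34959238), its neighbour and near copy, had 41, 15 and 2 counts in the controls, by replicate, against 8, 37 and 90 in the knockouts. The groups overlapped, the litter differences had both signs (-2.52, 1.24 and 4.72 in log2 CPM), and the log2 fold change was 1.03 (SE 1.51; 95% interval -2.44 to 4.50; edgeR adjusted p = 0.941). In the transcripts, 58.8% of the stretches of 50 bases in Hspa1a also occur in Hspa1b, and 62.3% of those in Hspa1b occur in Hspa1a. Reads that aligned to both are in the tally of reads without a unique alignment, so the split between the genes is uncertain and their counts leave such reads out. In knockout 2 the counts were 787 for Hspa1a and 37 for Hspa1b, and in knockout 3 the order was the opposite, 48 and 90. Gm20481, which overlaps 564 bases of Hspa1a on the other strand, had 0 counts in all 6 libraries.

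Levels per kilobase of annotated exon leave out reads with more than 1 alignment, which can affect genes unequally. Stretches of 50 bases shared with other genes' transcripts make up 73.2% of Hspa8, 58.5% of Hsp90aa1 and 44.8% of Hspd1. In Hspa5 and Hsph1 they make up 0%. Annotated exons can also be longer than the longest coding transcript, as in Hsph1 (7266 against 3802 bases). The order of levels between genes is therefore only approximate. In controls it was Hsp90ab1 (609 ± 3.17 CPM per kilobase), Hspd1 (187 ± 25.002), Hsp90aa1 (87.3 ± 14.7), Hspa5 (78.7 ± 10.8), Hspa8 (74.6 ± 13.6), Hsph1 (46.2 ± 9.25), Hspe1 (28.8 ± 6.48), Dnajb1 (27.9 ± 2.42), Hspa1b (0.221 ± 0.254) and Hspa1a (0.0845 ± 0.139; SD, n = 3 each). Hsp90aa1, Hspa5 and Hspa8 overlapped one another, as did Hspe1 and Dnajb1, and Hspa1b and Hspa1a. In knockouts the levels were 540 ± 109.96 for Hsp90ab1, 103 ± 24.2 for Hspd1, 87.1 ± 17.2 for Hspa5, 62.0 ± 21.0 for Hsp90aa1 and 55.9 ± 17.2 for Hspa8 (SD, n = 3 each). Hspd1 was above Hspa5 in each control (166 to 214 against 67.0 to 88.4 CPM per kilobase). In knockouts 1 and 3 Hspa5 was the higher (98.7 and 95.2 against 96.1 and 83.8), and in knockout 2 Hspd1 was (131 against 67.3).

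In the wider chaperone system of the cytosol most genes were on the lower side, without passing the test. Of 60 genes on 6 lists, 51 were tested, of which 39 had a log2 fold change below 0 and 12 above, with a median of -0.16. Scaled by library size alone, 19 lay below 0 and the median was 0.065. Set against the median of all genes, 40 of the 51 lay below it under each of the 5 scalings. In edgeR none passed, with 3 lower and 0 higher at an unadjusted p under 0.05 (2.24% and 4.26% of all genes). Every knockout lay below every control in 11 of the 51, or above in 1 (7.74% and 6.39% of all genes). DESeq2, which called 1.02% of all genes, called 1 of the 51, Fkbp4, an immunophilin that works with HSP90 on steroid receptors. It had 246, 205 and 196 CPM in controls and 87.8, 125 and 76.5 CPM in knockouts, about 44.8% of the control mean (DESeq2 log2 fold change -1.14, adjusted p = 0.0201; edgeR -1.16, SE 0.25, adjusted p = 0.622). The 11 co-chaperones of HSP90, Fkbp4 among them, had 7 below 0 and 4 above (5 and 6 with scaling by library size alone).

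All 9 exchange factors and cofactors of HSP70 had log2 fold changes below 0, with a median of -0.28, and all 9 lay below the median of all genes under each scaling, though with library size alone 5 of them were above 0. Bag2, an exchange factor and inhibitor of the ligase Stub1, had 29.4, 20.03 and 35.1 CPM in controls and 12.7, 13.8 and 12.4 CPM in knockouts (edgeR unadjusted p = 0.0201, adjusted p = 0.722). Stub1 itself was under 1 CPM in every library. The TRiC chaperonin, a barrel that folds actin and tubulin, and prefoldin, which passes clients to it, had 11 of 14 subunits below 0 and a median of -0.15 (5 of 14 and 0.046 with library size alone, where 11 still lay below the median of all genes). Cct6a had 212 ± 25.9 CPM in controls and 148 ± 18.4 CPM in knockouts, and Cct2 had 235 ± 16.9 and 178 ± 15.98 CPM (SD, n = 3 each; edgeR adjusted p = 0.753 and 0.778). In both subunits, named for the smallest p of the list, every knockout lay below every control. This was so for 3 of the 14 subunits and for 7.74% of all genes.

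Cytosolic J proteins had 6 of 10 below 0 (median -0.11) and the other HSP70 and HSP110 genes 5 of 6 tested (median -0.07), numbers that were 4 and 0 with library size alone. The smallest p in these lists belonged to Dnajb5 (6.59 ± 8.74 CPM in controls, 1.32 ± 0.689 CPM in knockouts), Dnajb2 (2.25 ± 1.89 and 0.312 ± 0.428), Hspa12a (2.25 ± 1.97 and 3.37 ± 3.62) and Hspa12b (16.3 ± 8.26 and 13.7 ± 6.82; SD, n = 3 each; edgeR adjusted p = 0.824, 0.844, 0.969 and 0.969). Only 1 of 9 small heat shock proteins could be tested, Hspb6, at 3.32, 2.57 and 3.45 CPM in controls and 0.0252, 5.81 and 0 CPM in knockouts. Hsf1, which encodes the main heat shock transcription factor, had 64.5, 36.4 and 42.8 CPM in controls and 39.0, 72.1 and 81.1 CPM in knockouts (log2 fold change 0.42, SE 0.36; edgeR adjusted p = 0.888), with overlapping groups. Hsf2 had 7.36, 3.18 and 4.29 CPM in controls and 25.5, 5.04 and 1.17 CPM in knockouts. The other 3 of the 5 listed heat shock factor genes did not have enough counts to be tested.

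**Figure D4:**
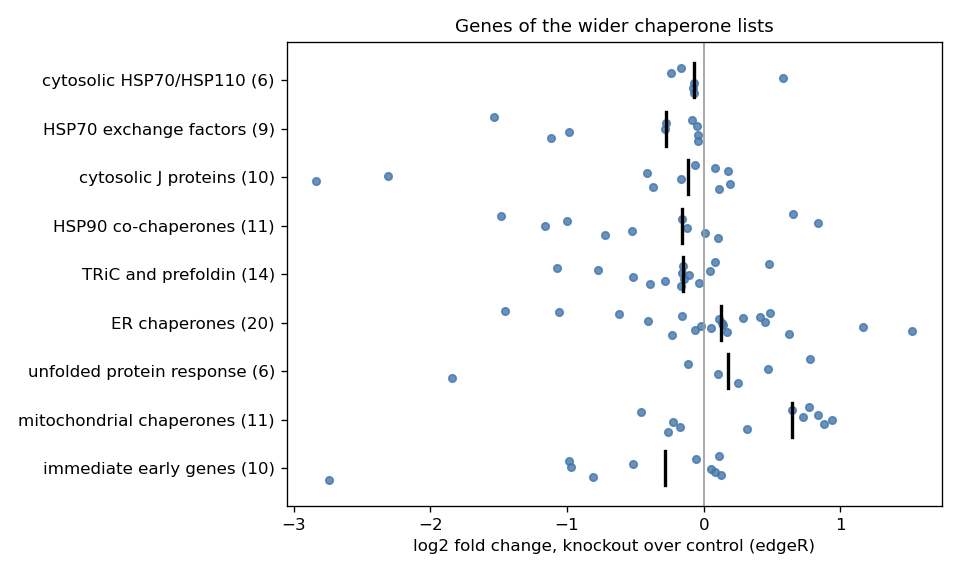
Log2 fold change of knockout over control from edgeR (x axis) for the tested genes of each list (points; number tested in brackets), with the list's median as a black bar. The medians of the 5 cytosolic lists shown lie between -0.28 and -0.07, that of the mitochondrial list at 0.64, while with scaling by library size alone these cytosolic medians lie above 0. No gene passed the threshold in edgeR.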

How the data were processed

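RNA was sequenced from 6 samples of sorted HSCs, 3 per genotype. The authors deposited raw counts per gene symbol, 1 library per file, and 5 tallies of reads given to no gene, which made up 41.0% to 51.0% of all reads and were left out. The submitters' processing notes name TopHat2, HTSeq 0.6.0, Picard 1.126, bedtools 2.17.0, CASAVA 1.8.4, DESeq 3.0 and the build mm10, without their roles; the annotation and strand setting are not given in the sources used here. The poly(A) selection in 2 rounds is per the labels' protocols. No molecular tags are described, so limits on counts cover counting error only.

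Genes were kept by filterByExpr (13646), scaled with edgeR's TMM factors and tested with edgeR 4.0.16 (R 4.3.3; glmQLFit, glmQLFTest, no litter term), with Benjamini-Hochberg adjustment over all genes tested and a threshold of 0.05. Each SE was obtained by dividing the fitted log2 fold change by the root of its F statistic. Litter differences use log2 CPM with a prior count of 2. Alternatives were litter as a block, DESeq2 1.42.0, limma-voom (limma 3.58.1), other scalings and filters, and leaving out each sample. Litter numbers pair the samples per the labels. The deviations of litter mates from their group means correlated at -0.0224, -0.0752 and 0.00336 in litters 1 to 3, and edgeR with the block called no member. Fits were tested on simulated data. Coordinates, exon lengths and transcripts are from GENCODE M21 (GRCm38, as mm10). Exact permutation tests were two-sided, on log2 values.

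The members and lists were chosen with earlier results of these data known. Named from each list were the genes past the threshold in edgeR or else DESeq2, or else the 2 with the smallest p, and Hsf1. From the profiles most like the members', the closest 3 were named. Hspa9, Hspa1l, Gm20481 and the markers named were chosen after their values were seen. Pfdn6 and Adgre1 were matched by their older symbols.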

Additional observations from a re-analysis of the deposited data

Results flagged for a closer look

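A difference between the genotypes was seen in a part of the data that the comparisons do not use. This is the tally of reads marked ambiguous because they touch several genes. Its share of the library's reads was 0.780%, 0.859% and 0.885% for the controls and 0.907%, 0.919% and 0.913% for the knockouts, by replicate. Controls averaged 0.842% ± 0.0551 and knockouts 0.913% ± 0.00591 (SD, n = 3 each), and every knockout lay above every control. In other tallies the groups overlapped. Reads with more than 1 alignment made up 15.4% to 16.2% in controls and 13.4% to 18.3% in knockouts. Shares of reads not aligned and of reads touching no gene overlapped as well. Among the members, the exons of Hspd1 and Hspe1 overlap by 112 bases, those of Hspa1a and Gm20481 by 564, and those of Hspa8 with Snord14c, Snord14d and Snord14e by 86, 86 and 90. The difference in this share was not tested.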

How the results depend on the processing

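The count of members past the threshold was 0 in every fit except DESeq2 with the replicate block, where it was 1 (Hspa1a). Leaving out each sample in turn gave 0 to 0 members and 0 to 0 genes. Over all genes tested the count was 0, also with the replicate block in edgeR. It was 1 with no filter on low counts, 1 with at least 10 counts in every sample, 139 in DESeq2 and 270 in DESeq2 with the block. The replicate block changed no other call of a member. Directions turned in 4 members. Scaled by library size only, Hsp90ab1 turned to 0.011 and Hsph1 to 0.068. Leaving out samples, Hsph1 ran from -0.34 to 6.3e-05 (without control 1), Dnajb1 from -0.052 (without knockout 2) to 0.46 and Hspa1b from -0.011 (without knockout 3) to 2.49. The cause was not tested. Hspd1 stayed between -1.05 and -0.63, Hspa8 between -0.70 and -0.20, Hsp90aa1 between -0.79 and -0.27, Hspe1 between -0.76 and -0.20, Hspa5 between 0.02 and 0.37 and Hspa1a between 2.167 and 8.97 over their alternatives. The log2 difference of the cytosolic sum was -0.24 (-0.42 to -0.14 leaving out samples, -0.02 by library size only). That of Hspa5 was 0.14 (0.02 to 0.31 leaving out samples, 0.35 by library size only, 0.012 under upper-quartile scaling). That of the mitochondrial pair was -0.83 (-1.02 to -0.69 leaving out samples, -0.62 by library size only). With at least 10 counts in every sample Hspa1a and Hspa1b could not be fitted. Depth limits this pair most, with under 100 counts in 11 of 12 values.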

Other observations

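Genes whose profiles over the 6 libraries were most like those of the members were found by the root mean square difference in log2 CPM, each profile centred on its own mean, among 9017 to 9019 genes with a mean of at least 5 CPM. With 6 libraries and so many genes, the likeness is a description and says nothing of shared function. For the mean of Hspd1 and Hspe1 the closest gene was Rer1, which returns proteins from the Golgi to the ER (difference 0.0941), at 43.2, 38.6 and 41.9 CPM in controls and 22.7, 37.04 and 21.2 CPM in knockouts. RP24-570C10.6 (0.0979) and Hp1bp3 (0.0995) were next. For Hspa5 they were Luzp1 (0.0801), Igf1r, the receptor of insulin-like growth factor (0.0955), and Fyttd1 (0.0970). Hspa1a and Hspa1b themselves have means under 5 CPM, so genes at their level were not searched. Among the genes searched no profile came close to theirs. The best, of Dnajc27, differed by 0.974, where the pair's own profile departed from its mean by 2.02, and Gna14 (0.988) and Mybl1 (1.00) followed.

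Immediate early genes respond within minutes to handling and stimulation of cells. Of these, Fos had 2.83, 0.401 and 1.84 CPM in controls and 0.528, 0.220 and 0 CPM in knockouts, and Jun had 31.8, 11.8 and 24.0 CPM in controls and 8.05, 22.8 and 7.65 CPM in knockouts. Of 11 such genes 10 were tested, none passed in edgeR or DESeq2, and 6 lay below 0 (5 to 9 over the scalings). The gene next to Hspa1a, Hspa1l, had 128 counts in control 3, where Hspa1a had 0, and 0 counts in knockout 2. Processed copies of Hspe1 that the files list had counts of 0.806% to 9.76% of those of Hspe1.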
